A study of Homo sapiens with 4 samples.

Results

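The genes for the receptors of glutamate and GABA, the main excitatory and inhibitory neurotransmitters of the brain, were examined for binding of TBX3 in a melanoma cell line. The set was chosen by gene name. It comprised all genes of the AMPA (GRIA), kainate (GRIK), NMDA (GRIN), delta (GRID) and metabotropic (GRM) glutamate receptors, the subunits of the GABA-A receptor (GABR) and the GABA-B receptor (GABBR). The names matched 47 of 19974 protein-coding genes in the gene table used. Binding had been measured by chromatin immunoprecipitation and sequencing (ChIP-seq) in 501mel, an established human melanoma line. The 2 ChIP samples carried the T-box transcription factor TBX3 with a triple HA tag (TBX3-3xHA) and were precipitated with an anti-HA antibody, and 2 further samples were input chromatin. All 4 samples came from the same line, and how the tagged protein was expressed, or at what level, is not given in the sources used here. Peak lists of the ChIP samples were used, while the inputs were not analysed here. Peak lists hold no expression values, so the labelled cell type could not be set against its markers, nor could it be asked which receptor genes were transcribed.

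Ionotropic receptors of both transmitters are channels built from several subunits, each with a gene of its own. AMPA and kainate receptors carry fast excitatory currents. NMDA receptors additionally admit calcium and need a co-agonist. Metabotropic glutamate receptors and the GABA-B receptor act through G proteins, and GABA-A receptors are chloride channels. Many GABA-A subunit genes lie side by side in clusters on a few chromosomes. In melanoma, recurrent mutations of GRIN2A and GRM3 have been described. Melanocytes derive from the neural crest, the embryonic source of many peripheral neurons and glia.

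Each peak was recorded by its summit, a single base, with a deposited score and the nearest gene as annotated by the authors. The nearest gene is the one whose transcription start site (TSS) is closest. A pair of summits, one from each list, was called a shared region when each was the nearest to the other and they lay within 200 bp. Gene and distance were then read from replicate 1, and positions are given in build hg38, with the summit of replicate 1 first. The lists held 32479 peaks in replicate 1 and 40494 in replicate 2, with 22702 shared regions. Their read depth is unknown. Receptor genes were the nearest gene of 53 peaks (0.163%) in replicate 1 and of 78 peaks (0.193%) in replicate 2. These gave 38 shared regions, and in all 38 both lists named the same gene.

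TBX3 summits lay close to the start sites of receptor genes about as often as for other genes. Of the 47 genes, 4 had one of the shared regions at most 10 kb from a TSS (8.51%, 95% Wilson interval 3.36% to 19.9%), against 10.1% of all protein-coding genes. These 4 were GABRR2, GABRR3, GABBR1 and GRIK2, of which GABBR1 counted only through a start site inside the gene. By family, this was 2 of 19 GABA-A subunit genes, 1 of 2 GABA-B genes and 1 of 5 kainate genes, with 0 of 4 AMPA, 0 of 7 NMDA, 0 of 2 delta and 0 of 8 metabotropic genes. None of the 38 regions lay within 1 kb of a TSS, a count whose interval reaches up to 9.18%. Of all 22702 shared regions, 883 did (3.89%), which lay inside that interval. At any distance, 20 of the 47 genes were the nearest gene of a shared region (42.6%, 29.5% to 56.7%), against 28.6% of all protein-coding genes. They comprised 10 of 26 glutamate receptor genes and 10 of 21 GABA receptor genes. By family, the counts were 2 AMPA, 3 kainate, 3 NMDA, 0 delta, 2 metabotropic, 9 GABA-A and 1 GABA-B genes.

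**Figure D1:**
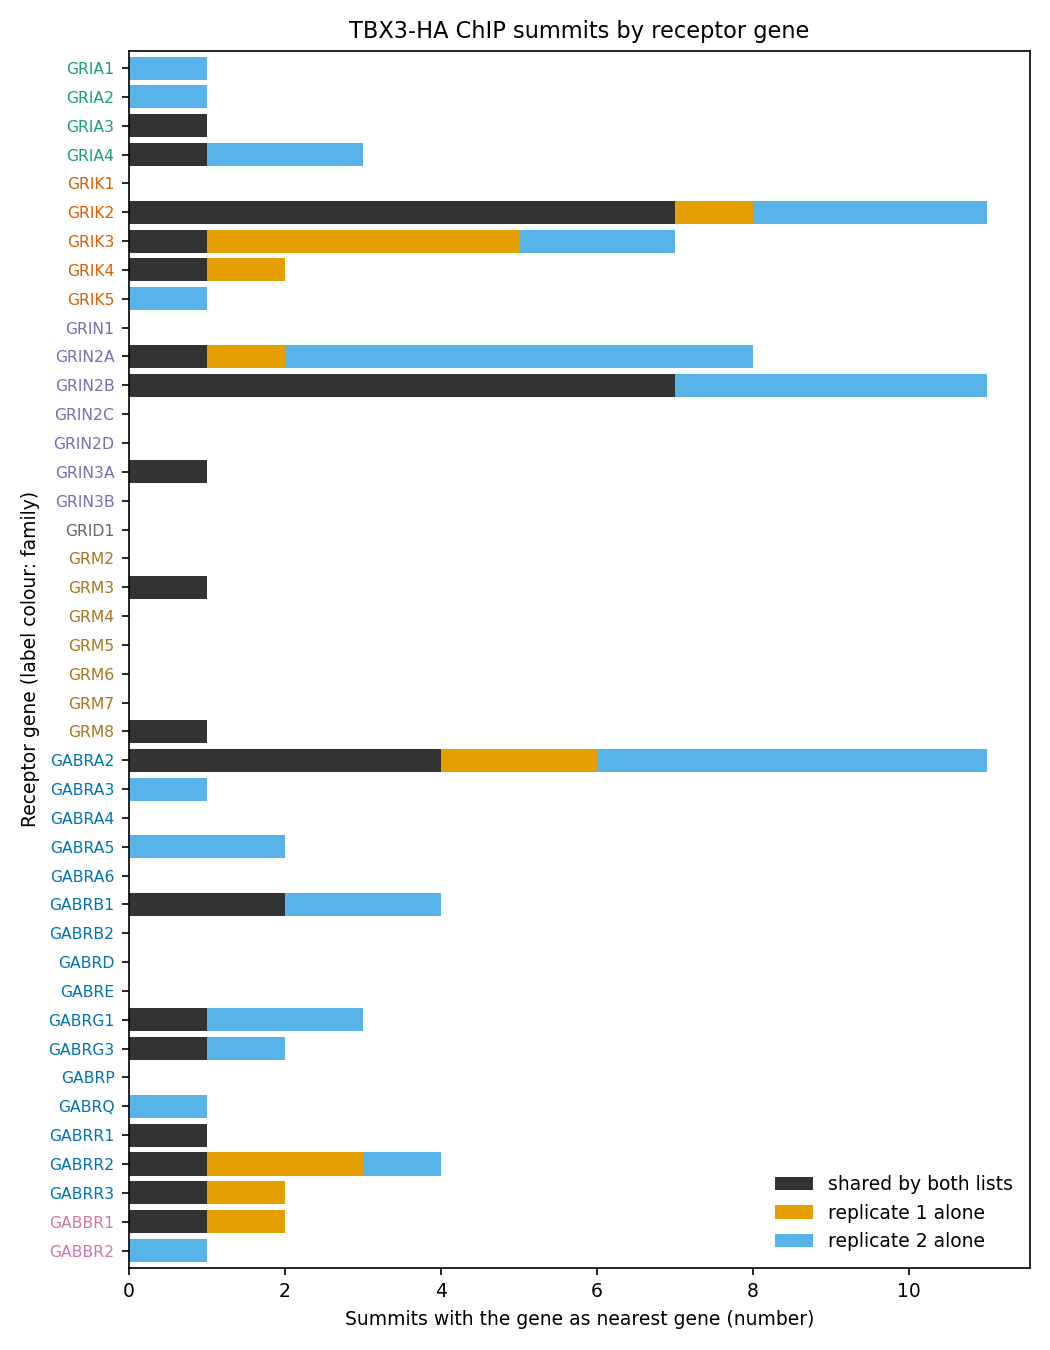
Number of ChIP summits (x axis) with each of 42 receptor genes (y axis, label colour by family) as nearest gene, split into shared regions and summits found in a single replicate. GRIK2, GRIN2B and GABRA2 have the most summits, and 17 of the genes drawn have none.

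The single lists gave other counts near start sites. Replicate 1 alone had a peak within 10 kb at 5 receptor genes, the same 4 included, against 13.4% of all protein-coding genes. Replicate 2 alone had one at 8 genes, the same 4 with GRIN2B, GRIA1, GRIA4 and GABRA5, against 15.5% of all. At any distance replicate 1 reached 20 of the 47 receptor genes, against 34.1% of all protein-coding genes. Replicate 2 reached 28 of the 47, against 38.4% of all. In 8 genes there were peaks in replicate 2 and no shared region, among them GRIA1, GRIA2, GRIK5, GABRA3, GABRA5, GABRQ and GABBR2. No peak of either list was nearest to the other 19 receptor genes. Among these were GRIK1, GRIN1, GRIN2C, GRIN2D, GRIN3B, GRID1, GRM2, GRM4, GRM5, GRM6, GRM7, GABRA4, GABRA6, GABRB2, GABRD, GABRE and GABRP.

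Receptor peaks recurred about as often as others in replicate 1, where 38 of 53 had a partner (71.7%, 58.4% to 82.0%) against 69.9% of all peaks. In replicate 2 it was 38 of 78 (48.7%, 37.9% to 59.6%) against 56.1%, which lay inside the interval. Receptor peaks without a partner had a median score of 4.50 in replicate 1, with a highest of 9.39, and of 8.72 in replicate 2, with a highest of 33.2. The medians of receptor peaks with a partner were 17.1 and 32.7 in the same lists. All peaks showed the same order, with medians of 5.87 and 6.98 without a partner and 19.3 and 29.0 with one.

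The limit of 10 kb fell in a gap of the annotated distances. The 4 regions inside lay 4152 bp (GABRR2), 4375 bp (GABRR3), 6593 bp (GABBR1) and 7129 bp (GRIK2) from a TSS. The next were GRIK2 regions at 17268 bp, 18000 bp and 24025 bp and a GRIN2B region at 24295 bp. The GABBR1 distance was to a start site inside the gene, and from its start in the gene table the region would fall outside 10 kb. The median distance was 97.8 kb over the 38 regions and 51.1 kb over all shared regions. Beyond 100 kb lay 19 of the 38 (50%, 34.8% to 65.2%), against 34.6% of all shared regions. The intervals treat the 38 regions as independent, although they came from 20 genes, with 7 each from GRIK2 and GRIN2B. Gene span was not taken into account in these distances. The annotation placed 22 regions in intergenic sequence (57.9%, 42.2% to 72.1%) and 16 in introns (42.1%, 27.9% to 57.8%). Across all shared regions these shares were 53.2% and 39.7%. None of the 38 was in a promoter, in an exon, UTR, transcript end or non-coding gene, or in a satellite repeat, each a count whose interval reaches up to 9.18%. Of all shared regions, 2.52% were in promoters and 4.61% in the second group, both inside that interval, and 16.6% were in satellites, outside it. Repeats overlapped 10 of them (26.3%, 15.0% to 42.0%), against 41.7% of all shared regions, which lay inside the interval. They comprised 5 LTR (13.2%), 3 LINE (7.89%) and 2 SINE elements (5.26%), against 10.6%, 7.07% and 4.31% of all.

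**Figure D2:**
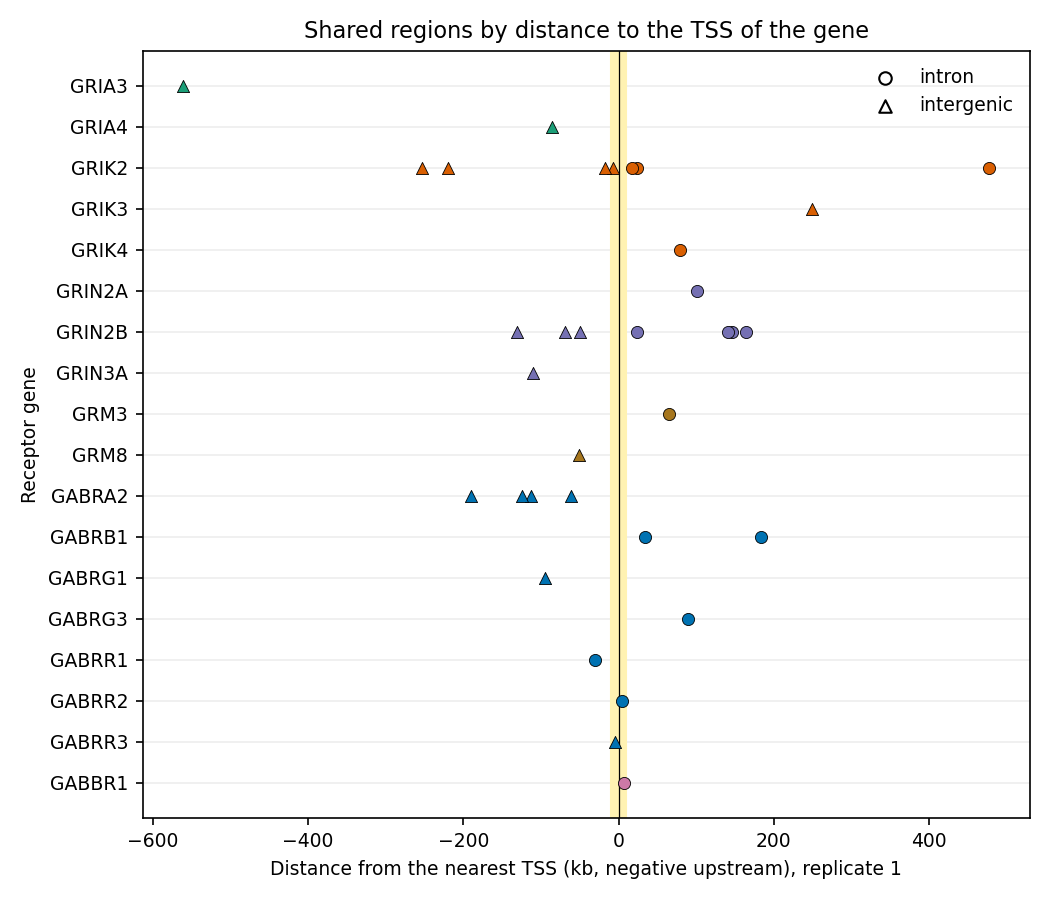
Signed distance in kb (x axis, negative upstream) from each of 34 shared regions to the TSS of the receptor gene annotated as nearest (y axis), with circles for introns and triangles for intergenic sequence and the band of 10 kb either side shaded. Only GRIK2, GABRR2, GABRR3 and GABBR1 have a region inside the band.

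The receptor regions stood between the top 0.440% and the top 87.8% of the replicate 1 list by score, and between the top 0.215% and the top 92.2% of the replicate 2 list. In replicate 1 the lowest was 4.50, the median 17.1 and the highest 358. In replicate 2 they were 3.68, 32.7 and 558. Medians over all shared regions were 19.3 and 29.0. Among the 38, 5 were in the top 10% of both lists (13.2%, 5.75% to 27.3%), against 12.4% of all shared regions. The top 1% of both lists held 2 (5.26%, 1.46% to 17.3%), against 1.30% of all, which lay inside the interval. The top 2% of both lists held 4 of them (10.5%, 4.17% to 24.1%), against 2.48% of all. The next region, at GRM3, stood in the top 8.02% and 3.98% of the lists. The limit of 2% thus fell in a gap of the ranks. It was not part of the planned counts, and other limits within the gap were not tested. The intervals treat the regions as independent, although some share a nearest gene, so no excess is read from these 4 regions. The 4 regions in the top 2% all had a GABA-A subunit gene as nearest gene, which need not hold the region. Those of GABRR2 and GABRB1, among them, lay in introns of these genes. When the score ranks of both lists were added, the first 10 regions comprised 6 with a GABA-A gene as nearest gene. Another 3 had a kainate and 1 a metabotropic gene, and none an AMPA or NMDA gene.

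**Figure D3:**
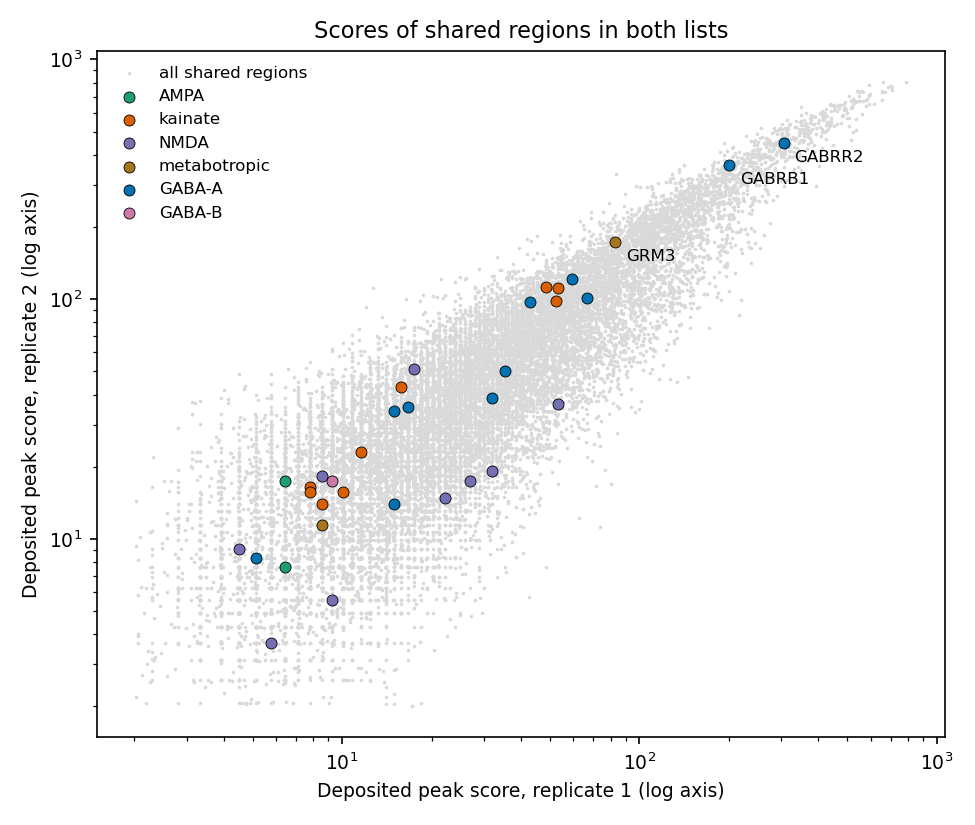
Deposited peak score in replicate 1 (x axis, log scale) and replicate 2 (y axis, log scale) for all 22702 shared regions (grey) and 34 receptor regions coloured by family, with the names GABRR2, GABRB1 and GRM3 at the highest of them. The GABRR2 region (306 and 449) and the higher of the GABRB1 regions (201 and 364) lie towards the upper end.

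All 4 AMPA receptor genes were nearest to a peak in at least 1 list, and 2 of them to a shared region. GRIA3 and GRIA4, which encode pore-forming subunits, were each nearest to 1 shared region. The GRIA4 region was 85.6 kb upstream with scores of 6.43 and 17.4, in replicates 1 and 2 in this order, as throughout. The GRIA3 region was 560.8 kb upstream, with scores of 6.43 and 7.62. Both stood in the lower part of the replicate 1 list. A further shared region in intron 14 of 16 of GRIA4 was annotated to MSANTD4 and had scores of 7.12 and 24.0. GRIA1 had a single peak, in replicate 2, 2573 bp from a TSS and in an intron, with a score of 15.6. GRIA2, whose edited transcript limits calcium entry, had a single replicate 2 peak annotated to the 3′ UTR with a score of 21.1.

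Among kainate receptor genes, GRIK2 had the most regions. GRIK2, encoding the GluK2 subunit, was nearest to 8 peaks in replicate 1 and 10 in replicate 2, and 7 were shared. They extended over 730.1 kb on chromosome 6, with 4 upstream and 3 in introns. None overlapped an annotated repeat. Their scores ran from 7.82 to 53.2, with a median of 11.6, in replicate 1 and from 13.9 to 112 in replicate 2. The region within 10 kb had summits at 101391856 and 101391827 in intergenic sequence, 7129 bp upstream of the TSS used in the annotation. Its scores were 52.6 and 98.1, at ranks 4570 and 3598. The gene table gives GRIK2 an earlier start, and the replicate 1 summit lay 1.85 kb before it. A region in intron 10 of 16 had summits at 101876616 and 101876571, 477.6 kb from the TSS, with scores of 53.2 and 111 (ranks 4477 and 3010). Another, 252.5 kb upstream and intergenic, had summits at 101146518 and 101146590 and scores of 48.5 and 112 (ranks 4919 and 2956). These 3 regions held the highest scores of the gene in both lists. The other 4 shared GRIK2 regions scored between 7.82 and 11.6 in replicate 1.

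GRIK3 had a different pattern. It had 5 peaks in replicate 1 and 3 in replicate 2, but only 1 was shared, 249.7 kb from the TSS and 10976 bp outside the span of the gene, with scores of 10.0 and 15.6. GRIK4 had 1 shared region as nearest gene, in intron 1 of 19, with scores of 15.8 and 43.1. A further one in its intron 2 was annotated to LOC105369532, with scores of 12.2 and 38.7. GRIK5 had 1 peak in replicate 2, and GRIK1, which spans 403.1 kb, had none as nearest gene and none inside.

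The promoter sequence of GRIK3 is shown because it was the only one of the receptor promoters at hand with the letters AGGTGTGA, to which T-box proteins are known to bind. Promoter windows of 300 bases, 250 before and 50 after a start site, were taken from RefSeq (build GRCh38.p14) for 34 of the 47 genes, with 51 windows in all. The letters, searched on both strands, stood in 1 of the 51 receptor windows and in 0.980% of the 35116 windows of all genes. The shorter form GGTGTG, which the longer one contains, stood in 7 of 51 (GRIK3, GRIK2, GRIK5, GABRA2, GABRA4, GRM4 and GRM5) and in 16.8% of all. Within none of the 51 windows was there a summit of either list, so the match is a description of the sequence alone. The stretch lies at chr1:37034670-37034699, written along the minus strand of the gene, and the capitals mark the 8 letters, whose first base is 173 bases before the start site.
GRIK3 promoter: gccccccgcgcAGGTGTGAgcgcgcgagtg

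NMDA receptor genes were reached through GRIN2B, GRIN2A and GRIN3A. GRIN2B, encoding the GluN2B subunit, was nearest to 7 peaks in replicate 1 and all 7 were shared. Replicate 2 had 11. The shared regions extended over 295.2 kb on chromosome 12, with 3 in intron 2 of 12, 1 in intron 1 and 3 upstream. Repeats overlapped 5 of the 7. Scores ran from 4.50 to 53.2 in replicate 1 and from 3.68 to 51.2 in replicate 2, and the nearest region was 24295 bp from the TSS. The highest in replicate 1, in intron 2, scored 53.2 and 36.4, whereas the highest in replicate 2, 68.8 kb upstream, scored 17.5 and 51.2. The lists thus put different GRIN2B regions first.

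GRIN2A, encoding GluN2A, differed between the lists in number. It had 2 peaks in replicate 1 and 7 in replicate 2, of which 1 was shared. That region lay in intron 3 of 13, 101.4 kb from the TSS, with scores of 9.28 and 5.55. The 6 peaks in replicate 2 alone had scores from 2.58 to 5.55. Every GRIN2A summit was therefore at 9.28 or below. GRIN3A had 1 shared region 110.7 kb upstream, with scores of 27.0 and 17.4. GRIN1, which encodes the subunit common to all NMDA receptors, had no peak nearest to it or shared region inside it, and the same held for GRIN2C, GRIN2D and GRIN3B.

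Delta receptor genes were nearest to no peak of either list. GRID1 spans 767.2 kb and held no shared region inside it.

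Among metabotropic receptor genes, GRM3 and GRM5 had regions with high scores. GRM3 had 1 region on chromosome 7, in intron 1 of 5, with summits at 86708592 and 86708549, 64678 bp from the TSS. Its scores were 83.0 and 173, at ranks 2604 and 1612. GRM5, a group I receptor coupled to phospholipase C, had a region in intron 3 of 8 annotated to its antisense gene GRM5-AS1, with scores of 96.2 and 206 (ranks 2149 and 1194). GRM8 had 1 region 51.1 kb upstream, with scores of 8.54 and 11.4, and 2 inside it that were annotated to the microRNA gene MIR592. GRM2, GRM4, GRM6 and GRM7 had no region nearest or inside, although GRM7 spans 880.4 kb.

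GABA-A subunit genes were the nearest genes of 15 of the 38 regions, with 9 genes named. Genes that lie in clusters were also counted between the outer ends of the cluster. On chromosome 4 the cluster of GABRG1, GABRA2, GABRA4 and GABRB1 measured 1.39 Mb and had 11 peaks in replicate 1, 17 in replicate 2 and 9 shared regions. On chromosome 6 the pair GABRR1 and GABRR2 measured 0.138 Mb and had 4, 3 and 2. On chromosome X the cluster of GABRE, GABRA3 and GABRQ measured 0.706 Mb and had 0, 2 and 0. These 2 peaks, at GABRA3 and GABRQ, scored 9.86 and 14.8.

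GABRG3, on chromosome 15 and next to the pigmentation gene OCA2 in the gene table, was the nearest gene of 1 shared region, in intron 3 of 5, with scores of 35.2 and 50.0. Inside its span of 570.8 kb, however, there were 6. The other 5 were annotated to the antisense gene GABRG3-AS1. The highest of these had summits at 27454580 and 27454582 with scores of 170 and 293 (ranks 776 and 608), and another at 27128000 and 27128009 had scores of 137 and 275 (ranks 1161 and 693). GABRG3 therefore held the most shared regions of any receptor gene by span and few by nearest TSS. GABRA5, its neighbour in the gene table, had 2 peaks in replicate 2 alone, of which the nearer was 9720 bp from a TSS with a score of 7.62.

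In the cluster on chromosome 4, GABRB1 and GABRA2 were the nearest genes of most shared regions. GABRB1, encoding the β1 subunit, had 2 as nearest gene. The first, in intron 3 of 8, had summits at 47065381 and 47065379, 34103 bp from the TSS, and scores of 201 and 364 (ranks 561 and 363). The second, in intron 4, had summits at 47214181 and 47214202, 182903 bp from the TSS, and scores of 66.5 and 101 (ranks 3476 and 3423). A further shared region in intron 4 of GABRB1 was annotated to COMMD8 and had scores of 6.88 and 8.08. GABRA2, encoding α2, had 4 shared regions, all upstream and intergenic within 129.2 kb, from 60.6 kb to 189.8 kb from the TSS. The highest had summits at 46503271 and 46503310, 113203 bp upstream, with scores of 59.1 and 121 (ranks 3974 and 2692). GABRA2 also had 2 peaks in replicate 1 alone and 5 in replicate 2 alone. GABRG1 had 1 shared region 94.2 kb upstream, in an LTR element, with scores of 14.9 and 34.3, and GABRA4 had none.

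GABRR2 had the strongest region near a start site. The rho subunits, encoded by GABRR1, GABRR2 and GABRR3, form GABA-gated channels known best from the retina. The GABRR2 region on chromosome 6 had summits at 89311147 and 89311140 in intron 1 of 8, 4152 bp from the TSS. Its scores were 306 and 449 at ranks 222 and 214, so it stood in the top 0.684% of replicate 1 and the top 0.528% of replicate 2. GABRR2 had further low peaks in intron 1. In replicate 1 these were at 3091 bp and 253 bp from the TSS with scores of 2.50 and 2.80, and in replicate 2 at 2822 bp with a score of 19.3. The summits at 3091 bp and 2822 bp were 269 bp apart and so were not paired. The region annotated to GABRR1 lay in intron 8 of 8 of GABRR2, 29725 bp from the GABRR1 TSS, with scores of 16.6 and 35.3.

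The GABRR3 region, 4375 bp upstream on chromosome 3 with summits at 98039679 and 98039595 in intergenic sequence, had scores of 5.12 and 8.35 (ranks 27154 and 27021). It stood low in both lists. GABRA6, GABRB2, GABRD, GABRE and GABRP were nearest to no peak.

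The GABA-B receptor is an obligate pair of GABBR1 and GABBR2. GABBR1 had 1 shared region on chromosome 6, in intron 9 of 21, with summits at 29621635 and 29621749, 6593 bp and 6479 bp from a TSS. Its scores were 9.28 and 17.4 (ranks 19780 and 17266). The gene table gives GABBR1 an earlier start, at 29633183, more than 10 kb from both summits. GABBR2 had no shared region as nearest gene and 1 peak in replicate 2 alone, with a score of 6.22. A shared region inside GABBR2, in intron 6 of 18, was annotated to TBC1D2 and had scores of 21.2 and 37.5.

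Counting by the span of the gene instead of the nearest TSS gave 32 shared regions in 15 of the 47 genes, against 20.9% of all protein-coding genes with a region inside. Of the 32, 16 were annotated to a gene outside the receptor set, in 9 genes. With these, 24 receptor genes had a region nearest or inside, and 23 had neither. The receptor genes are long. Their median span was 146.8 kb, against 24.2 kb for all protein-coding genes, and 22 of 47 (46.8%) spanned at least 200 kb, against 6.99% of all. Among genes of at least 200 kb, 12 of 22 receptor genes were nearest to a shared region (54.5%, 34.7% to 73.1%), against 65% of all. Among those of 50 to 200 kb it was 7 of 14 (50%, 26.8% to 73.2%), against 43.2%, and among those under 50 kb it was 1 of 11 (9.09%, 1.62% to 37.7%), against 19.8%. In each class the share over all genes lay inside the interval of the receptor genes.

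Inside genes the regions were sparser in the receptor set. The 32 regions lay in 12.5 Mb of gene span, which is 2.55 per Mb, against 7.35 per Mb over all protein-coding genes, each gene being counted on its own. The order was the same in each class, with 2.63 against 7.30 per Mb at 200 kb and over, 1.57 against 8.24 per Mb at 50 to 200 kb, and 4.54 against 5.61 per Mb under 50 kb. The last rests on 1 region. At 200 kb and over, 13 of 22 receptor genes held a region inside, against 76.8% of all such genes. At 50 to 200 kb it was 1 of 14, GABRR2, against 41.4%, and under 50 kb it was 1 of 11, GABBR1, against 7.92%. Long receptor genes with none numbered 9, among them GRIA1, GRIA3, GRIK1, GRIK3, GRID1, GRM7, GABRA3 and GABRB2. NMDA genes had 4.34 regions per Mb (5 regions, 4 of them in GRIN2B). GABA-A genes had 4.27 (11 regions in 3 genes, 6 of them in GABRG3). Kainate genes had 2.68 (5 regions), metabotropic genes 1.64 (5 regions) and AMPA genes 0.870 (1 region). The GABA-B pair had 4.43, from 2 regions. These values are descriptions of the families and were not tested against each other.

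**Figure D4:**
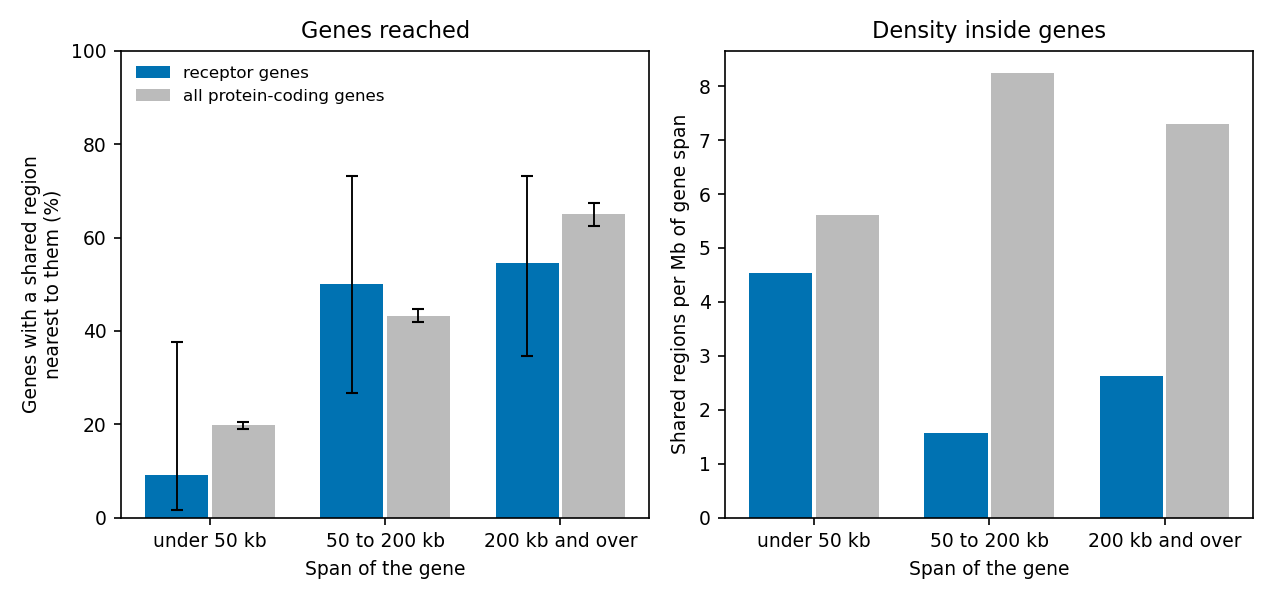
Left, percentage of genes (y axis) that are the nearest gene of a shared region, with 95% Wilson intervals as error bars. Right, shared regions per Mb of gene span, without error bars. Both are split by the span of the gene (x axis) for receptor genes (blue) and all protein-coding genes (grey), and on the right the blue bar is the lower one in all 3 classes.

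Other genes of glutamate and GABA signalling were counted the same way, from a list of 55. Of these, 7 were reached at a distance of at most 10 kb (12.7%, against 10.1% of all protein-coding genes) and 23 at any distance (41.8%, against 28.6%). No interval was computed for these shares, and the spans of the 55 genes were not taken into account. Over all protein-coding genes, the share at any distance was 19.8% under 50 kb and 65% at 200 kb and over. The scaffolds and anchoring proteins had 4 of 18 within 10 kb, the transporters 2 of 13, the enzymes of synthesis and breakdown 1 of 6 and the auxiliary subunits 0 of 18. At any distance the counts were 10, 4, 2 and 7. HOMER1, a scaffold that binds group I metabotropic receptors, had a region annotated as promoter, 97 bp upstream of a TSS, at ranks 2108 and 2989. GPHN encodes gephyrin, which anchors GABA-A receptors at synapses. Of the 2 regions nearest to it, 1 was 592 bp from a TSS (ranks 23068 and 21506). NLGN1, an adhesion protein of excitatory synapses, had one 2812 bp upstream (ranks 5592 and 8355).

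Of the transporters, SLC1A3, a glial glutamate transporter, had a region 257 bp from a TSS (ranks 17029 and 29728). SLC17A8, a vesicular glutamate transporter, had one at 8681 bp (ranks 6457 and 3133). GLS2, a glutaminase, had one 8496 bp upstream (ranks 16984 and 20711). The auxiliary subunit gene CNIH3, whose product associates with AMPA receptors, was nearest to 9 shared regions. None of them lay within 10 kb of a TSS, and 8 shared regions lay inside the gene. GPHN had more inside its span, with 10.

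Among the listed genes, GPHN and SLC1A3 had a shared summit inside a RefSeq promoter window, in 2 of 75 windows at hand (2.67%). Over all genes it was 1.15% of windows, and the difference from 0 of the 51 receptor windows was not tested. The 30 bases around each replicate 1 summit are shown because these are the summits whose sequence was at hand, with the base under the summit in capitals. Both are on the plus strand of build GRCh38.p14. Their start sites in RefSeq differ from those in the authors' annotation used for the distances above. The GPHN stretch lies at chr14:66507984-66508013, and the summits were 148 and 181 bases before the RefSeq start site. The SLC1A3 stretch lies at chr5:36606597-36606626, and the summits were 6 and 28 bases after the RefSeq start site. The letters AGGTGTGA stood in neither window, and GGTGTG stood once in that of SLC1A3 and not in that of GPHN.
GPHN: gcgatccgcggtcctActcaggctgggccg
SLC1A3: tgcagtttcagagcaCatgcacactgtcag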

How the data were processed

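Peak summits of 2 ChIP samples were analysed. The authors annotated each list with HOMER annotatePeaks.pl against hg38, per the file headers. The submitters' processing notes name FastQC 0.11.7, cutadapt 2.8, Bowtie2 2.3.5, MACS2 2.1.2 and SAMtools 1.9 without their role. The control, the threshold and the scale of the deposited score are not given in the sources used here, and the score was used only to describe and rank peaks within a list. Scores began at 2.01 and 2.00. Distances in bases were deposited in each list, per the file headers. Read depth is unknown, so intervals cover counting error only.

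Genes were matched through gene identifiers to RefSeq GRCh38.p14, on chromosomes 1 to 22 and X, and spans come from that table. The nearest gene of 55.9% and 57.0% of peaks matched a protein-coding gene there. Python 3.11.15, pandas 2.3.3, NumPy 2.4.6, SciPy 1.17.1 and matplotlib 3.10.9 were used. Pairing was tested on simulated summits set far apart, with partners well within the limit, so closely spaced summits were not covered. The genes, lists and alternatives were chosen with earlier results of these data known. With 1 ChIP condition no test between conditions was possible, and no p-value was computed. By the rule for named genes, those with a region within 10 kb and the 10 regions of lowest rank sum were described in full, apart from those not reported. In every family, the gene with the most regions and the genes with none were named, and listed signalling genes were named when within 10 kb. CNIH3 was chosen after its value was seen, as were the regions inside GPHN, GABRB1, GABRG3, GRM5, GRM8 and GABBR2. Single results for some genes are not reported here and are left out of the plots by gene and region; counts over the whole set include them.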

Additional observations from a re-analysis of the deposited data

How the results depend on the processing

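Of 61 alternatives to the counts and shares, 35 stayed within 1.5 times the count or inside the interval, and 26 did not. A single count or share has no direction, so a reversal could not be asked. No paired analysis was possible because the input samples that carry the same replicate numbers were not analysed here. The share of regions holding a T-box motif was not run, since no genome was at hand. For the values below the cause was not tested. Stricter settings leave fewer peaks by construction.

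Receptor genes within 10 kb (4) numbered 2 with pairing within 50 bp (GABRR2 and GRIK2), 0 with summits at the same base, 2 with scores at or above the median and 2 with the 5000 highest scores, where all protein-coding genes gave 8.09%, 0.170%, 7.20% and 2.53%. They numbered 0 within 1 kb, 2 within 5 kb, 7 within 50 kb and 14 within 100 kb, where all protein-coding genes gave 2.99%, 6.04%, 22.9% and 26.5%. Without replicate 1 and without replicate 2 they were 8 and 5 (all genes 15.5% and 13.4%). At any distance (20), they were 0 at the same base, 13 above the median and 6 in the top 5000 (all genes 0.721%, 21.99% and 9.27%), and 28 and 20 without replicate 1 and 2 (all genes 38.4% and 34.1%). Regions (38) were 24 within 50 bp, 0 at the same base, 23 above the median and 10 in the top 5000, and 78 and 53 peaks in the single lists.

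The share with a partner (71.7% and 48.7%) was 45.3% and 30.8% within 50 bp, 0% in both for identical bases, 100% in replicate 1 with scores above the median, and 90.9% and 83.3% in the top 5000. The listed signalling genes within 10 kb (7) were 4 above the median, 12 without replicate 1 and 10 without replicate 2 (all genes 7.20%, 15.5% and 13.4%), settings chosen after seeing the data. At any distance (23) they were 28 and 25 without replicate 1 and 2 (all genes 38.4% and 34.1%). Of 7 GRIN2B regions, 2 remained without repeats and 3 within 50 bp.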
